A study of Mus musculus with 4 samples.

Results

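Chromatin accessibility was examined around the mouse genes *Dlx1*, *Dlx2*, *Dlx3*, *Dlx4*, *Dlx5*, *Dlx6*, *Msx1* and *Msx2*, which encode homeobox transcription factors. A region belonged to them if it overlapped one of these 8 genes or the 25 kb on either side of it (GENCODE M21 annotation of GRCm38), and a region shared by a *Dlx* pair was counted once. The windows joined into 5 loci that held 70 of the 255864 regions of the count table. Accessibility had been measured by ATAC-seq, which uses a transposase to tag open DNA, and the number of reads at a site reports how open it is. The cells were primary osteoblasts, the bone-forming cells, of 3-day-old C57BL/6 mice. In the TCKO mice, Prx1-Cre, a recombinase active in limb and part of the skull mesenchyme, acted on floxed *Tet1*, *Tet2* and *Tet3* (Tet1fl/fl Tet2fl/fl Tet3fl/fl), so cells outside that lineage kept the alleles. The controls were labelled wild type, and the labels did not say whether they carried the floxed alleles without Cre. There were 4 samples, 2 per genotype, and the table held 1 merged column for each genotype. The spread between replicates could therefore not be measured, no test of genotype was possible, and every difference given here compares one merged library with the other.

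DLX and MSX proteins bind related AT-rich sites through their homeodomains. DLX proteins mostly activate transcription and MSX proteins mostly repress it, and both families act downstream of BMP signalling in the skull, jaw, teeth and limbs. The 6 *Dlx* genes lie in 3 pairs, each transcribed towards each other with shared enhancers in and around the pair, whereas *Msx1* and *Msx2* stand alone. In bone, DLX3, DLX5 and DLX6 promote osteoblast differentiation and MSX2 is required for growth of the skull vault. TET enzymes oxidise 5-methylcytosine, mostly at CpG dinucleotides.

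The table held 56898657 WT and 34608167 TCKO counts, with medians of 86 and 60 counts per region. TCKO counts were multiplied by 1.64 to match the WT total, and 1 count was added to each genotype. The log2 ratio of TCKO over WT was then taken, so a value above 0 means a larger share of the counted reads in TCKO. A loss or gain common to all regions is scaled away. On this scale the median of all regions was 0.06. With depth from the peak caller background (factor 1.08) it was -0.54. Scaled by totals, 12.3% of all regions were at least 2-fold higher and 4.51% at least 2-fold lower. The study, with its own 2-fold relative enrichment of merged peaks, reported the opposite balance, with more closing than opening regions. Intervals in parentheses are 95% intervals (Wilson method) from the share of TCKO reads among the reads of both genotypes. They hold counting error alone, and reads that carry no molecular identifier need not stem from separate molecules. Start sites of all 7 osteoblast markers looked at had counted regions, from 93 to 2475 counts in WT and 51 to 1491 in TCKO. Start sites of other cell types were also counted. These were 4 of 5 macrophage or osteoclast markers (up to 708 WT and 531 TCKO counts, *Ptprc* without a region), 4 of 4 endothelial markers (57 to 581 and 74 to 483), 2 of 4 skeletal muscle markers (up to 226 and 213, *Myod1* and *Myog* without a region) and 3 of 4 chondrocyte markers (up to 2311 and 1205, *Matn1* without a region). Before scaling, the summed counts of the osteoblast markers were 6995 in WT and 3927 in TCKO. They were 1376 and 1065 for endothelial, 1242 and 954 for macrophage or osteoclast, 327 and 296 for skeletal muscle and 4425 and 2467 for chondrocyte markers. Markers of 1 list could differ, as in the endothelial list *Tek* held 339 and 162 counts and *Cdh5* 57 and 74. The part of other cells in the values below was not tested, and in these bulk samples a change in the number of cells of a type and a change per cell cannot be told apart.

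Most regions of the *Dlx* and *Msx* loci differed by less than 2-fold between the genotypes, and those past 2-fold lay away from the start sites. The 70 regions held 19345 WT and 12403 TCKO counts, from 22 to 1822 per region in WT and from 11 to 860 in TCKO. Their median log2 ratio was 0.05 (-0.03 to 0.15, from order statistics), and its difference from the median of all regions was -0.014 (-0.098 to 0.084). These 2 intervals treat the 70 regions as separate draws, although they lie in 5 loci and share 1 merged library per genotype. They describe spread among regions and give no error on the difference between genotypes. Of the 70, 4 were at least 2-fold higher in TCKO, or 5.71% against 12.3% of all regions. Another 3 were at least 2-fold lower, or 4.29% against 4.51% of all regions. Intervals lay wholly above 0 in 21 regions (30.0% against 29.5% of all regions), wholly below 0 in 11 (15.7% against 18.9%) and included 0 in 38. The loci thus held shares of changed regions close to or below those of the whole table. These shares were not matched for counts. The 70 regions had medians of 167.5 WT and 108.5 TCKO counts, against 86 and 60 in the whole table. Regions with few counts pass 2-fold more readily through counting error, so the lower share past 2-fold cannot be read as a trait of the loci. The count of 3 lower regions was 1 with 10 counts added, 9 with the background of the peak caller as the scale and 14 without scaling, and the count of 4 higher regions was 1 with the background of the peak caller and 1 without scaling.

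**Figure D1:**
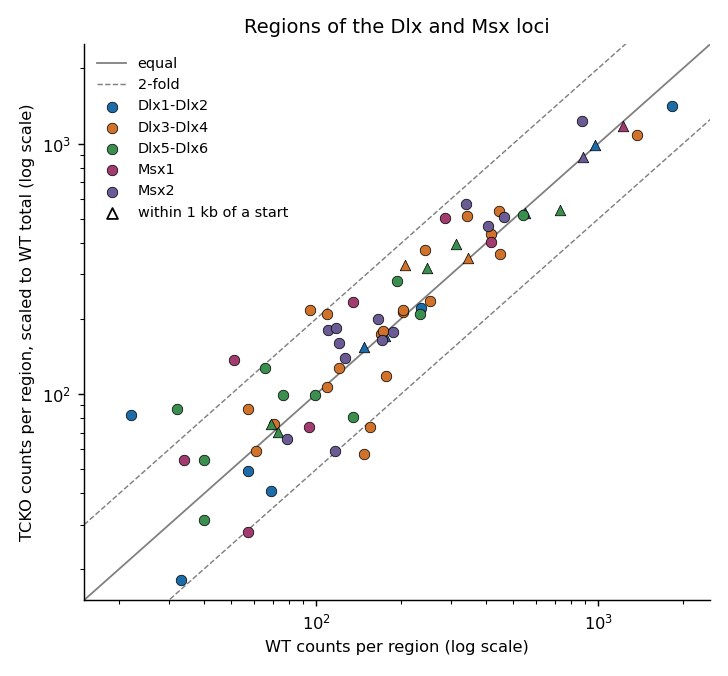
Counts of the 70 regions in WT (x axis) against TCKO scaled to the WT total (y axis), both on log scales, coloured by locus, with triangles for regions within 1 kb of a start. The solid line marks equal counts and the dashed lines a 2-fold difference. Outside the dashed lines lie 4 regions above and 3 on the lower side, none of them a triangle and all with 155 WT counts or fewer.

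All 7 regions past 2-fold lay in the flanks, outside the genes, more than 1 kb from the starts and outside the stretch between paired genes. Flanking regions made up 49 of the 70 regions (70%). The 4 higher ones came from 4 loci and each had a peak called in TCKO only. In the *Dlx1*-*Dlx2* locus it lay 10.1 kb upstream of *Dlx2* in intergenic DNA (chr2:71556785-71556946) and held 22 WT and 50 TCKO counts, 3.62-fold higher on the scaled counts, with a log2 ratio of 1.86 (1.19 to 2.62). This was the one member region whose whole interval was past 2-fold, and it rested on few reads. In the *Dlx5*-*Dlx6* locus it lay 22.1 kb upstream of *Dlx6*, in an intron of the antisense transcript gene *Dlx6os1* (chr6:6841186-6841333), and held 32 and 53 counts, 2.67-fold higher (log2 ratio 1.42, 0.82 to 2.07). In the *Msx1* locus it lay 11.5 kb upstream of *Msx1* (chr5:37835980-37836195) and held 51 and 83 counts, 2.64-fold higher (log2 ratio 1.40, 0.92 to 1.92). In the *Dlx3*-*Dlx4* locus it lay 14.3 kb upstream of *Dlx4* (chr11:95160429-95160652) and held 95 and 132 counts, 2.27-fold higher (log2 ratio 1.18, 0.81 to 1.57). All 4 lay upstream of the nearest *Dlx* or *Msx* gene. In the *Dlx* loci this follows from the layout. Paired genes are transcribed towards each other, so every flanking region there lies upstream of its nearest member. Only the region of the *Msx1* locus could have lain on either side, so no preference for upstream DNA can be read from the 4.

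The 3 lower regions came from 2 loci and each had a peak called in WT only. Both of the *Dlx3*-*Dlx4* locus lay upstream of *Dlx3*. The farther one, 24.8 kb away (chr11:95095187-95095498), held 148 WT and 35 TCKO counts, 2.55-fold lower on the scaled counts, with a log2 ratio of -1.35 (-1.89 to -0.83). In this region 62.5% of the bases were soft-masked as repeats in the reference. The nearer one, 17.5 kb away (chr11:95102520-95102725), held 155 and 45 counts, 2.08-fold lower (log2 ratio -1.06, -1.54 to -0.59). The third lay 19.7 kb downstream of the *Msx1* start (chr5:37804773-37804963), held 57 and 17 counts and stood at the cutoff, at 2.00-fold (log2 ratio -1.003, -1.80 to -0.26). None of these 3 intervals lay wholly past 2-fold.

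The central 200 bases of the 4 higher regions and of the region with the lowest ratio in the *Dlx3*-*Dlx4* and *Msx1* loci are given because they carry the differences past 2-fold. They were read from the RefSeq genome GRCm38.p6, plus strand. Capitals mark matches to TGANTCA, the site of AP-1 factors such as FOS and JUN, which reads the same on both strands, or to TGTGGT, the core bound by Runt factors such as RUNX2, which appears as ACCACA where it lies on the minus strand.
Dlx1-Dlx2 higher, chr2:71556766-71556965: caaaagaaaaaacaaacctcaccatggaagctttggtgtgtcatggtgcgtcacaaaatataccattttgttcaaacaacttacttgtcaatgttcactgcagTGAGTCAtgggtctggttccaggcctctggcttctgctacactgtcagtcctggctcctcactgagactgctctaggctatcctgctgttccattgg
Dlx3-Dlx4 higher, chr11:95160441-95160640: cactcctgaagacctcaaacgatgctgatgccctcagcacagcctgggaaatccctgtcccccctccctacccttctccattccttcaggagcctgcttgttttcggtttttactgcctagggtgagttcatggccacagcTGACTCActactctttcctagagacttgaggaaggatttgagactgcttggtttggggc
Dlx5-Dlx6 higher, chr6:6841160-6841359: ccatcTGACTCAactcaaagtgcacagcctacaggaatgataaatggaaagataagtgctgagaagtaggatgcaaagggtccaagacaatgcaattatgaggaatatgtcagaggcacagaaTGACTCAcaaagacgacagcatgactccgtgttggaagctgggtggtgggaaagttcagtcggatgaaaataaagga
Msx1 higher, chr5:37835988-37836187: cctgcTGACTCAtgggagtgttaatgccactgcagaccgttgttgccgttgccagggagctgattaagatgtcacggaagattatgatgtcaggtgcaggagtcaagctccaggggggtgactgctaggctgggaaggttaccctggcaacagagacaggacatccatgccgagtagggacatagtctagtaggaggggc
Dlx3-Dlx4 lower, chr11:95095243-95095442: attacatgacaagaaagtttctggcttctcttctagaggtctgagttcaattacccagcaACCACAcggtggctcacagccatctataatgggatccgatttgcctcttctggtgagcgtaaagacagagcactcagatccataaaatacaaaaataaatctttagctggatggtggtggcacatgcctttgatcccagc
Msx1 lower, chr5:37804769-37804968: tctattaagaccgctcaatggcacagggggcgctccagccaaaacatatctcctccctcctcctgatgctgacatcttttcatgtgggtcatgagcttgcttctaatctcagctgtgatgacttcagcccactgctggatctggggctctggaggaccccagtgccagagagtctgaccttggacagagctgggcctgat

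Each of the 4 higher sequences held TGANTCA, as TGAGTCA in the *Dlx1*-*Dlx2* locus and TGACTCA in the others. The match lay 7 bases from the centre in the *Dlx1*-*Dlx2* locus, 45 in the *Dlx3*-*Dlx4* locus and 91 in the *Msx1* locus. The *Dlx5*-*Dlx6* sequence held 2 matches, 27 and 91 bases from the centre, and the farther one lay outside the bounds of the counted region. Of all regions at least 2-fold higher in TCKO, 42.8% held this match. None of the 3 lower member regions held it, against 7.97% of all lower regions. Both lower regions upstream of *Dlx3* held TGTGGT and the lower region near *Msx1* did not, against 23.5% of all lower regions and 22.6% of all higher ones, and 0 of the 4 higher member regions held it. A match is a string of letters and was not shown to be bound.

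The same matches were then counted over all 70 regions, which include those past 2-fold. TGANTCA lay in the central 200 bases of 13 regions (18.6%, against 23.6% of all regions), whose median log2 ratio was 0.66 against 0.01 in the 57 without it. In the whole table these medians were 0.42 and -0.02. Without the 4 higher regions, the other 9 had a median of 0.10. In the whole table, leaving out all regions past 2-fold moved the median of regions with the match from 0.42 to 0.24. Summed over their counts, the member regions with and without the match differed little, with log2 ratios of 0.087 and 0.074. Of the 13, 10 were above 0, and the 3 below included the region with most counts in the *Dlx1*-*Dlx2* locus, taken up with its locus. TGTGGT lay in 10 regions (14.3%, against 22.2% of all regions), with a median of -0.21 against 0.07 in the 60 without it. In the whole table the Runt medians were 0.09 and 0.06. Without the 2 lower regions upstream of *Dlx3*, the remaining 8 regions with a Runt match had a median of -0.03, with 4 below 0 and 4 above. In the whole table the Runt median without regions past 2-fold was 0.02. Both leave-outs among the members were chosen after the values were seen. Dropping the highest or the lowest regions of a set can only hold its median or move it the other way. The homeobox core TAATTA, searched on both strands, lay in 1 region (1.43%, against 2.47% of all regions), 6.84 kb upstream of *Dlx6*, which held 40 WT and 19 TCKO counts (log2 ratio -0.35, -1.14 to 0.42).

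**Figure D2:**
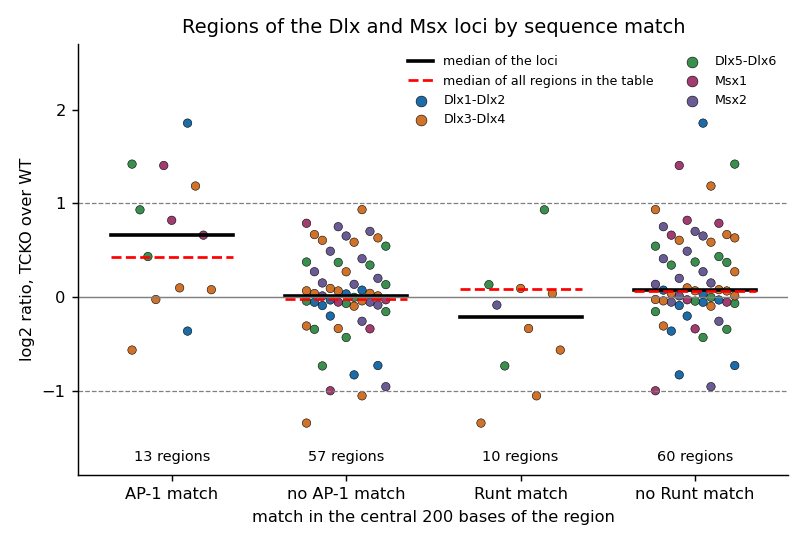
Log2 ratio (y axis) of the 70 regions by whether their central 200 bases held the AP-1 match or the Runt match (x axis), coloured by locus, each region drawn once for each match. Black lines are medians of the member regions, red dashed lines those of all regions with or without the match. The 13 regions with an AP-1 match have a median of 0.66 (0.10 without the 4 past 2-fold) and the 10 with a Runt match a median of -0.21 (-0.03 without the 2 past 2-fold).

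Start-site accessibility was compared next, where these genes are rich in CpG. It was summed over the regions within 1 kb of each annotated start, and all 8 genes had at least 1 such region. Over the 16279 protein-coding genes with a start-site region the median log2 ratio was -0.08 and the median WT count was 1055. Intervals lay below 0 in 37.7% of these genes and above 0 in 13.3%. Among the 8 members 1 interval lay below 0, 2 lay above and 5 included 0.

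*Dlx5*, an activator of osteoblast genes, had the lowest start-site value. Its region (chr6:6881549-6882213, over the start and a coding exon) held 731 WT and 329 TCKO counts, 1.35-fold lower on the scaled counts (log2 ratio -0.43, -0.62 to -0.25), at percentile 4.51 of all genes. It was below 0 under each of the other 6 scalings, from -1.15 to -0.38. Its partner *Dlx6* stood on the other side of 0. The 4 regions at its start held 702 WT and 524 TCKO counts (log2 ratio 0.29, 0.13 to 0.46), at percentile 90.3. The difference between the paired genes was -0.73 (-0.98 to -0.48), a value on which the total-count scale has no bearing. The region of *Dlx6* with most counts lay 0.507 kb upstream of its start, with 313 and 241 counts (log2 ratio 0.34), and the region over its first coding exon held 247 and 194 (0.37). The smaller regions inside the gene held 69 and 46 counts (0.13) and 73 and 43 counts (-0.05). The higher value of *Dlx6* thus came from both of its larger regions. It turned to -0.31 with the background of the peak caller.

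*Dlx3*, an activator expressed in osteoblasts, tooth and skin, had the highest start-site value. Its single region (chr11:95120029-95120512, over the 5′ UTR) held 206 WT and 199 TCKO counts (log2 ratio 0.66, 0.39 to 0.95), at percentile 96.7. It also had the fewest counts of the 8 starts, with a WT count at percentile 13.2 of all genes. Its partner *Dlx4* (chr11:95145954-95146411) held 346 and 212 counts (log2 ratio 0.01, -0.24 to 0.26), and the difference of *Dlx3* over *Dlx4* was 0.66 (0.28 to 1.03). Without scaling the *Dlx3* value was -0.050.

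The other 2 pairs did not differ beyond counting error at their starts. *Dlx1* held 970 WT and 603 TCKO counts in 1 region of 1388 bases (log2 ratio 0.03, -0.12 to 0.18), and *Dlx2* held 873 and 520 in 3 regions (-0.03, -0.19 to 0.13), a difference of 0.06 (-0.15 to 0.28). *Msx1* had the most counts of the 8 starts and the longest start region, with 1224 and 716 counts over 1476 bases (-0.06, -0.19 to 0.08). *Msx2* held 880 and 539 counts (0.01, -0.14 to 0.16), and the difference of *Msx1* over *Msx2* was -0.07 (-0.27 to 0.14). In order, *Dlx5* stood lowest, then *Msx1*, *Dlx2*, *Msx2*, *Dlx4* and *Dlx1*, whose intervals overlapped one another, then *Dlx6* and *Dlx3*. Starts of the antisense genes *Dlx1as* and *Dlx4os* shared the regions of *Dlx1* and *Dlx4*, so they cannot be told apart from them. No counted region lay at the start of *Dlx6os1*.

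**Figure D3:**
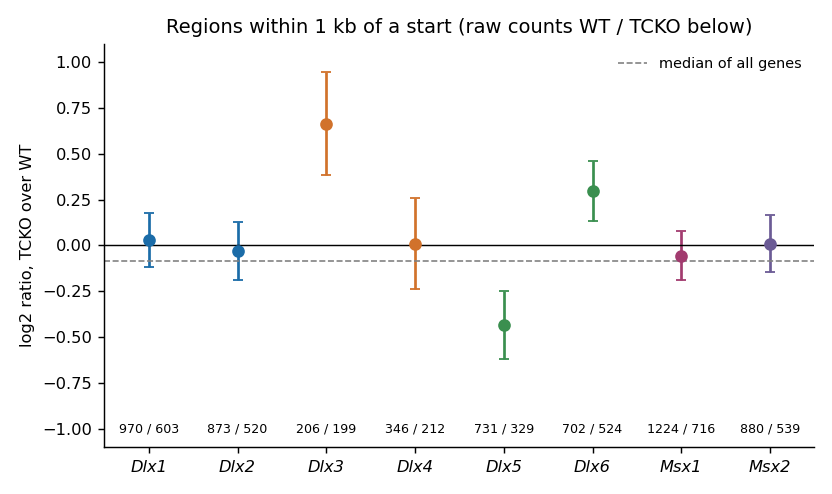
Log2 ratio (y axis) of the summed regions within 1 kb of the starts of each gene (x axis), with raw WT and TCKO counts printed beneath. Bars are 95% Wilson intervals (counting error only) and the dashed line is the median of all genes, -0.08. *Dlx5* lies wholly below 0, *Dlx3* and *Dlx6* lie wholly above 0, and the other 5 bars cross it.

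Summed over a whole locus and scaled by totals, accessibility in TCKO was lower around *Dlx1*-*Dlx2*, near equal around the other *Dlx* pairs and higher around both *Msx* genes. The region with most counts weighed heavily in 2 of these sums, with 53.3% of the WT counts of the *Msx1* locus and 44.6% of those of *Dlx1*-*Dlx2*. The *Dlx1*-*Dlx2* locus (chr2:71503113-71571754) held 4081 WT and 2233 TCKO counts in 10 regions (log2 ratio -0.15, -0.23 to -0.08). The *Dlx3*-*Dlx4* locus (chr11:95095119-95171263) held 5920 and 3728 counts in 23 regions (0.05, -0.01 to 0.11). The *Dlx5*-*Dlx6* locus (chr6:6838334-6907085) held 2890 and 1817 counts in 15 regions (0.05, -0.04 to 0.13). For these 2 pairs no difference was detectable at this depth. The *Msx1* locus (chr5:37795485-37849583) held 2296 and 1590 counts in 8 regions (0.19, 0.09 to 0.28), and the *Msx2* locus (chr13:53441884-53498074) held 4158 and 3035 counts in 14 regions (0.26, 0.20 to 0.33). Among the same windows of 19921 protein-coding genes, whose median was -0.02, *Msx2* stood at percentile 86.8, *Msx1* at 82.1, *Dlx3* at 73.7, *Dlx6* at 64.4, *Dlx4* at 59.8, *Dlx5* at 37.3, *Dlx2* at 20.01 and *Dlx1* at 19.3. The windows of paired genes share most of their regions. Of the 8 windows, 3 had an interval above 0 (28.0% of all windows) and 2 below 0 (35.7%).

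Differences between loci have no dependence on the scale factor. Of the 10 pairs of loci, 8 had an interval without 0. These intervals hold counting error alone, and the share among pairs of other windows was not computed, so the count of 8 is a description. The widest difference was that of *Dlx1*-*Dlx2* from *Msx2*, -0.42 (-0.52 to -0.32). *Dlx3*-*Dlx4* and *Dlx5*-*Dlx6* differed by 0.0023 (-0.10 to 0.11), and *Msx1* and *Msx2* by -0.08 (-0.19 to 0.04). In these sums *Dlx1*-*Dlx2* stood lowest, the other *Dlx* pairs together in the middle and the *Msx* genes together at the top. Within 2 kb of a start this order was not kept, with *Msx1* lowest at -0.056 and *Dlx3*-*Dlx4* highest at 0.23. Whether a locus lay above or below 0 did depend on the factor. A factor under 1.37 would put every locus below 0 and one above 1.83 would put every locus above 0. With the background of the peak caller (factor 1.08) *Msx1* stood at -0.42 and *Msx2* at -0.35, both still above the median of all regions, which was then -0.54.

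**Figure D4:**
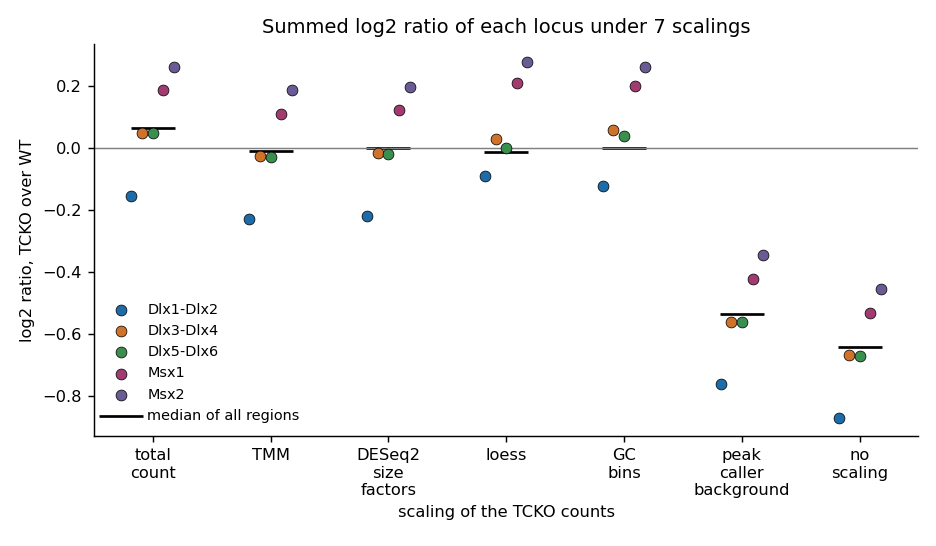
Summed log2 ratio (y axis) of each locus, coloured, under 7 ways of scaling the TCKO counts (x axis), with the median of all regions as a black line. The *Dlx1*-*Dlx2* locus lies under the line and both *Msx* loci lie over it in all 7.

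The lower sum of the *Dlx1*-*Dlx2* locus rested on 1 region. It lay in the intergenic stretch between the genes, directly past the 3′ end of *Dlx2* (chr2:71542657-71543321), and had the most counts of the 70 regions. It held 1822 WT and 860 TCKO counts, 44.6% of the WT counts of the locus, with a log2 ratio of -0.37 (-0.48 to -0.25). Without it the locus stood at -0.0011. The lowest ratio among regions with at least 50 counts was in a *Metap1d* intron 23.03 kb upstream of *Dlx1* (chr2:71504939-71505222), with 69 and 25 counts (-0.73, -1.40 to -0.09). The other *Dlx* pairs had regions between the genes too. That of *Dlx5*-*Dlx6* held 233 WT and 127 TCKO counts (-0.16, -0.47 to 0.15), and those of *Dlx3*-*Dlx4* held 449 and 220 (-0.31, -0.54 to -0.08) and 109 and 65 counts (-0.03, -0.47 to 0.41). All 4 regions between paired genes were below 0, with a median of -0.23, against a median of 0.01 in the 13 start-site regions, -0.02 in 4 gene-body regions and 0.10 in 49 flanking regions. The intervals of 2 of the 4 included 0, and of all 70 regions 30 were below 0. The regions between paired genes held 2613 WT and 1272 TCKO counts in all (log2 ratio -0.32), of which 1822 and 860 were in the region past *Dlx2*. No comparison with DNA between other gene pairs was made, so these 4 regions are a description only.

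In the *Dlx3*-*Dlx4* locus, regions with lower and higher values stood side by side. The one with most counts, in an exon of the antisense gene *Dlx4os* 11.8 kb upstream of *Dlx4* (chr11:95157591-95158439), held 1372 WT and 660 TCKO counts (-0.34, -0.47 to -0.20). A neighbour 13.7 kb upstream held 243 and 229 counts (0.63, 0.37 to 0.89), and the next one was the region 2.27-fold higher described above. Upstream of *Dlx3*, between the 2 lower regions and the gene, regions 14.3 and 13.1 kb away held 109 and 127 counts (0.93, 0.57 to 1.31) and 342 and 312 counts (0.58, 0.36 to 0.81). Of the 23 regions of the locus, 7 had intervals above 0 (29.5% of all regions) and 5 below 0 (18.9% of all regions), shares near those of the table. Without the region with most counts it was 0.15.

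Among its 15 regions the *Dlx5*-*Dlx6* locus held 5 with intervals above 0 (29.5% of all regions) and 2 with intervals below 0 (18.9% of all regions). Of the 4 regions in the *Dlx6os1* introns 19.0 to 23.4 kb upstream of *Dlx6*, the one with most reads held 194 WT and 172 TCKO counts (0.54, 0.25 to 0.84), and another held 66 and 77 counts (0.93, 0.47 to 1.41). The lowest ratio of the locus was in a coding exon of *Dlx6* (chr6:6867123-6867354), with 135 and 49 counts (-0.74, -1.21 to -0.28). This region, 3.90 kb past the start, had a peak called in WT only. Without the *Dlx5* start region the locus sum was 0.18.

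The positive sum of the *Msx1* locus came from its upstream side. The start region held 53.3% of the WT counts of the locus, and without it the sum was 0.42, whereas the start region by itself stood at -0.06. A pair of neighbours 5.58 and 6.05 kb upstream held 135 and 142 counts (0.79, 0.45 to 1.13) and 286 and 307 counts (0.82, 0.59 to 1.05), and the 2.64-fold higher region lay beyond them. All 3 intervals above 0 in this locus were in these regions.

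The positive sum of the *Msx2* locus came from the downstream side of the gene. The flanking region with most counts, in an intron of *Gm2762* 29.1 kb downstream of the *Msx2* start (chr13:53443706-53444309), held 877 WT and 748 TCKO counts (0.49, 0.35 to 0.63). The highest ratio (chr13:53464409-53464967), 8.39 kb past the start, held 340 and 348 counts (0.75, 0.54 to 0.97). On the upstream side the region with the lowest ratio, 14.1 kb before the start (chr13:53486962-53487343), held 116 and 36 counts (-0.96, -1.51 to -0.43) and was 1.94-fold lower, so no region of this locus was past 2-fold. Restricted to regions within 2 kb of a start, the *Msx2* sum was 0.01 and the *Msx1* sum -0.06, so the higher values of the *Msx* loci were not those of their starts.

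**Figure D5:**
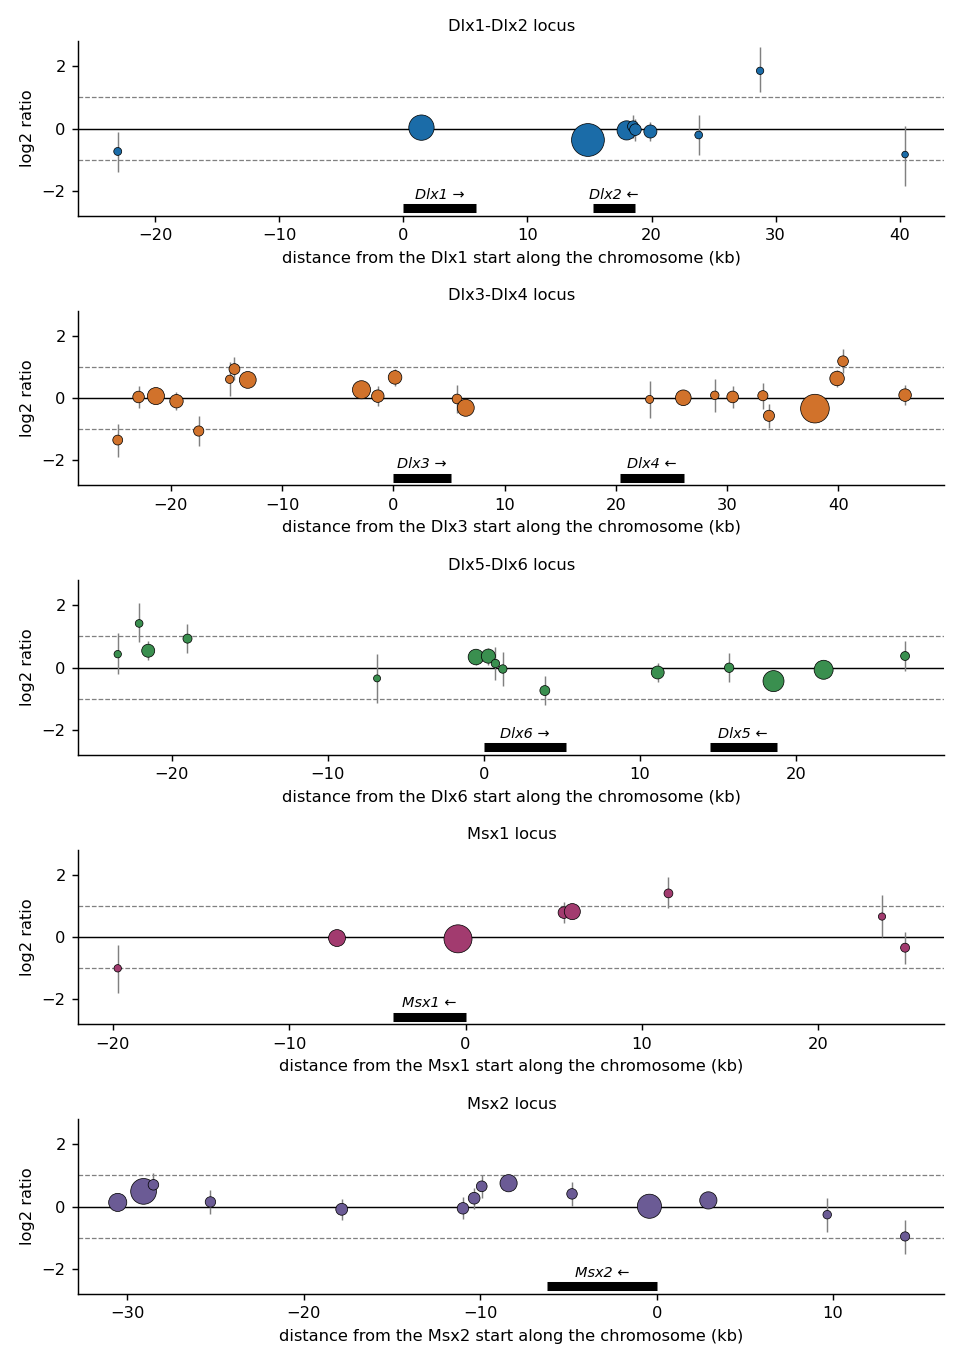
Log2 ratio (y axis) of each region against its distance in kb along the chromosome from a start in the locus (x axis), 1 panel per locus. Point area follows the raw counts of both genotypes together, and bars are 95% Wilson intervals (counting error only). Dashed lines mark 2-fold and black boxes the genes with their direction of transcription. The largest point of the *Dlx1*-*Dlx2* panel, at the 3′ end of *Dlx2*, lies at -0.37, and the points farthest from 0 are small and lie in the flanks.

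The authors' peak calls give a second view of the same libraries. A peak summit was called in both genotypes in 40 of the 70 regions (57.1%), in WT alone in 22 (31.4%, against 33.0% of all regions) and in TCKO alone in 8 (11.4%, against 10.2%). A call in 1 genotype did not always match the counts. Of the 22 regions called in WT alone, 6 had a log2 ratio above 0, among them a region 14.7 kb upstream of *Dlx3* with 57 WT and 53 TCKO counts (0.60, 0.08 to 1.15). All 8 called in TCKO alone were above 0. Calls and counts come from the same reads, so a match between them is largely built in. The matching shares over all regions are not given here. The 40 regions with both summits were also compared by fold enrichment over the local background of the same library. No factor between libraries enters it, but 1 is added to the reads at the summit and to the background. It can therefore still vary with depth. Its median log2 ratio of TCKO over WT was -0.24, with 30 lower and 10 higher. Over the 145301 such regions of the table the median was -0.19, with 101328 lower and 43973 higher, so most regions were lower in both sets. By locus the median was 0.16 for *Msx1* (3 of 4 regions higher), -0.10 for *Dlx1*-*Dlx2*, -0.22 for *Dlx5*-*Dlx6*, -0.33 for *Msx2* and -0.34 for *Dlx3*-*Dlx4*. The *Msx2* locus, highest by counts, was therefore among the lowest by summit enrichment, while *Msx1* was above the other loci by this measure and above the *Dlx* loci by counts.

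CpG-rich sequence made up a larger share of the *Dlx* and *Msx* regions than of the whole table. At least 10 CpG dinucleotides lay in the central 200 bases of 21 of the 70 regions (30.0%, against 6.66% of all regions). The start region of *Dlx1* held 107 CpG over its whole length and that of *Msx1* 111. The median log2 ratio was 0.01 in these 21 regions (-0.07 in all such regions), 0.01 in 28 regions with 3 to 9 CpG (-0.04 in all) and 0.43 in 21 with up to 2 (0.19 in all). None of the CpG-rich regions was past 2-fold. Across the 70 regions, which share both libraries and in part their loci, Spearman's rho between CpG count and log2 ratio was -0.16, and across all regions it was -0.21.

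Genes that act with the DLX and MSX proteins were read in the same windows of 25 kb, where 35.7% of all genes had an interval below 0 and 28.0% above. Of 13 genes of the BMP pathway, which switches *Dlx* and *Msx* genes on, 6 had an interval below 0 and 3 above, with a median of -0.06. *Id1*, a direct BMP target, was lowest (7964 WT and 3719 TCKO counts, log2 ratio -0.38, -0.44 to -0.33) and *Bmpr1b*, a BMP receptor, highest (8071 and 5789, 0.24, 0.19 to 0.29). Of 10 partners and targets in bone, 4 were below 0 and 2 above, with a median of -0.03. *Sp7*, a transcription factor of committed osteoblasts, stood at -0.23 (-0.28 to -0.17), *Runx2* at 0.00094 (-0.034 to 0.035) and *Ibsp*, a bone matrix gene, at 0.29 (0.16 to 0.42). Of 17 other homeobox genes of head and limb mesenchyme, 5 were below 0 and 9 above, with a median of 0.16. *Pitx1*, a hindlimb and jaw factor, was highest (440 and 391 counts, 0.55, 0.35 to 0.74) and *Prrx2* lowest (-0.12, -0.17 to -0.08). The 8 members had a median of 0.04 by this measure, with 3 above 0 and 2 below.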

How the data were processed

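ATAC-seq had been run on primary osteoblasts of WT and TCKO mice. Per the study's methods, reads were aligned end to end with STAR (2.7.0e per the submitters' processing notes) to GRCm38, uniquely mapping reads were kept, replicates were merged and peaks were called with MACS2. Removal of duplicate and mitochondrial reads and a shift of reads for the transposase were not given in the sources used here. The authors deposited raw counts per region, 1 merged column per genotype, and peak lists with a fold enrichment (a ratio) and the −log10 of the p-value and q-value of each summit, of which the q-value was not used. One protocol text spoke of 3 repeats per genotype where the sample list had 2. The study's 2-fold cutoff was kept.

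The count table was read as GRCm38, and all 21 chromosomes were long enough for it. On reading, 1 was added to each start, so coordinates given here are counted from 1. Counts of 56898657 (WT) and 34608167 (TCKO) in all set the precision. TCKO was scaled by the ratio of totals (1.64) and 1 count was added. Regions were annotated with GENCODE M21, and a distance runs from the start of the gene to the middle of the region. Start sites were regions within 1 kb of an annotated start. Motifs were searched on both strands in the central 200 bases. Differences between loci combined the errors of both ratios. Alternatives were TMM factors (edgeR 4.0.16, R 4.3.3), DESeq2 1.42.0 size factors, no scaling, depth from the peak caller background, loess (statsmodels 0.14.6, span 0.3), 20 bins of GC content, 10 counts added, at least 50 counts, windows of 2 and 50 kb (500 bp and 2 kb for starts), folds of 1.5 and 3, intervals wholly past the cutoff, and leaving out the top region of each locus or start regions of other genes. edgeR and DESeq2 gave factors only, as no test was possible. Ratios and intervals of single regions were tested on simulated counts that held counting error alone. The other steps were not tested in this way. Python 3.11.15 was used with pandas 2.3.3, numpy 2.4.6, scipy 1.17.1 and matplotlib 3.10.9.

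Named were all 8 genes, for each start and each locus the region with most counts, for each locus the largest fall and rise among regions with at least 50 counts in one genotype, and every such region past 2-fold. Other regions and genes were named after their values were seen. The members, marker and gene lists were chosen with earlier results of these data known. RefSeq promoter sequences were given for *Dlx1*, *Dlx2*, *Msx1* and *Msx2*, 4 of the 8 genes, and were not used here.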

Additional observations from a re-analysis of the deposited data

How the results depend on the processing

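No paired analysis was possible because replicates of a genotype were merged into 1 column, and for the same reason no replicate could be left out. The median of the 70 regions was -0.66 with no scaling and -0.56 with the background of the peak caller, while the medians of all regions were then -0.64 and -0.54, so both sets moved with the factor. Under the other 11 alternatives tried for it, the median of the 70 regions lay between -0.025 (TMM) and 0.068 (windows of 50 kb). The 4 regions at least 2-fold higher became 1 with no scaling, 1 with the peak caller background, 0 with the gene plus 2 kb or within 2 kb of a start, 7 with windows of 50 kb, 15 at a fold of 1.5, 1 at a fold of 3 and 1 with the interval wholly past the cutoff. The 3 lower regions became 14, 9, 0, 0, 3, 7, 0 and 0 in the same order, and 1 with 10 counts added. Direction reversed at the *Dlx3* start (-0.050 with no scaling), at the *Dlx6* start (-0.42 with no scaling, -0.31 with the peak caller background), in the *Msx1* locus (-0.53, -0.42, and -0.056 with either window of 2 kb) and in the *Msx2* locus (-0.45 and -0.35). The *Dlx1*-*Dlx2* locus was below 0 in all 13 alternatives, from -0.87 to -0.0011. Sums of *Dlx3*-*Dlx4* (-0.67 to 0.23) and *Dlx5*-*Dlx6* (-0.67 to 0.18) took both signs. The cause of the shifts with scaling was not tested. Depth limits single regions most: from 22 to 57 WT counts an interval spans more than 1 log2 unit.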
